A study of Mus musculus with 4 samples.

Results

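The genes of cholesterol synthesis and of its control by the sterol regulatory element-binding proteins (SREBPs) are described here in CD11b-positive cells isolated from mouse brain. The set holds 26 genes, found by symbol among the 55471 genes of the count table. There were 4 RNA-seq libraries, numbered 1 to 4 by their labels and all of 1 group. The mice, aged 10 to 13 weeks, received the CSF1R inhibitor PLX5622 for 7 days and then none for 10 days, 17 days in all. Brain cells were then isolated on magnetic beads against CD11b, the myeloid integrin chain, and RNA was sequenced after poly(A) selection. The submitters call the cells repopulated microglia. Strain and any pooling of animals are not stated in the labels, and the labels do not say that each library came from a separate animal. P-values below therefore describe how far these samples differ, a spread that may be technical. With 1 group, the data give levels and spread, and the effect of PLX5622 cannot be estimated.

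Cholesterol is built from acetyl-CoA through mevalonate, squalene and lanosterol, in a chain of enzymes whose genes share a common regulator. SREBPs are made as membrane-bound precursors of the endoplasmic reticulum, where Scap carries them and Insig proteins hold them back while sterol is plentiful. When sterol runs low, the precursor moves to the Golgi, is cut by proteases, and its released part enters the nucleus and switches on these genes. The adult brain makes its own cholesterol, mainly in glia, and microglia also take up large amounts from myelin debris.

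Total counts lay between 23036202 and 24487418 per library. Levels are CPM, scaled to a library of 1000000 counts, after scaling by edgeR's trimmed mean of M values, and levels of different genes are set side by side only per kilobase (kb) of exon. All 12 homeostatic microglia markers were detected, with a list median between 10.94 and 11.26 on the log2(CPM + 0.5) scale. Markers of other cell types were detected too, at 1 CPM or more in every library for all genes of the astrocyte, oligodendrocyte, endothelial, choroid plexus, border-associated macrophage and erythroid lists, for 1 of 4 T and NK cell genes and for 0 of 3 B cell genes. Library 3 stood apart from the rest, with endothelial markers summing to 182 CPM, against 725 to 847 CPM in the other libraries, and choroid plexus markers summing to 3318 CPM, against 15940 to 22241 CPM. Library 1 had the highest sums for oligodendrocyte markers, 878 CPM against 396 to 609 CPM, and for border-associated macrophage markers, 583 CPM against 241 to 291 CPM. In bulk samples, fewer cells of a type and less RNA per cell cannot be told apart.

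The pathway was expressed nearly whole. Of the 26 genes, 24 reached 1 CPM in every library, which is 92.3%, beside 22.6% of all genes in the table and 53.6% of the 21974 protein-coding genes. Fdps and Idi1, adjacent steps of the mevalonate arm, were the exceptions. Together the genes took 0.0928%, 0.0910%, 0.0871% and 0.0966% of the counts in libraries 1 to 4. Their median level was 4.87 CPM per kb over the 25 genes kept for testing, beside 5.09 CPM per kb over all 14112 genes tested. By role, the median level was 3.30 CPM per kb for the 8 genes of acetyl-CoA supply (Acly) and the mevalonate arm. It was 1.94 for the 3 of squalene and lanosterol and 5.002 for the 8 from lanosterol to cholesterol. For the 5 of SREBP control it was 9.60, and for the 2 further SREBP targets 5.30.

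**Figure D1:**
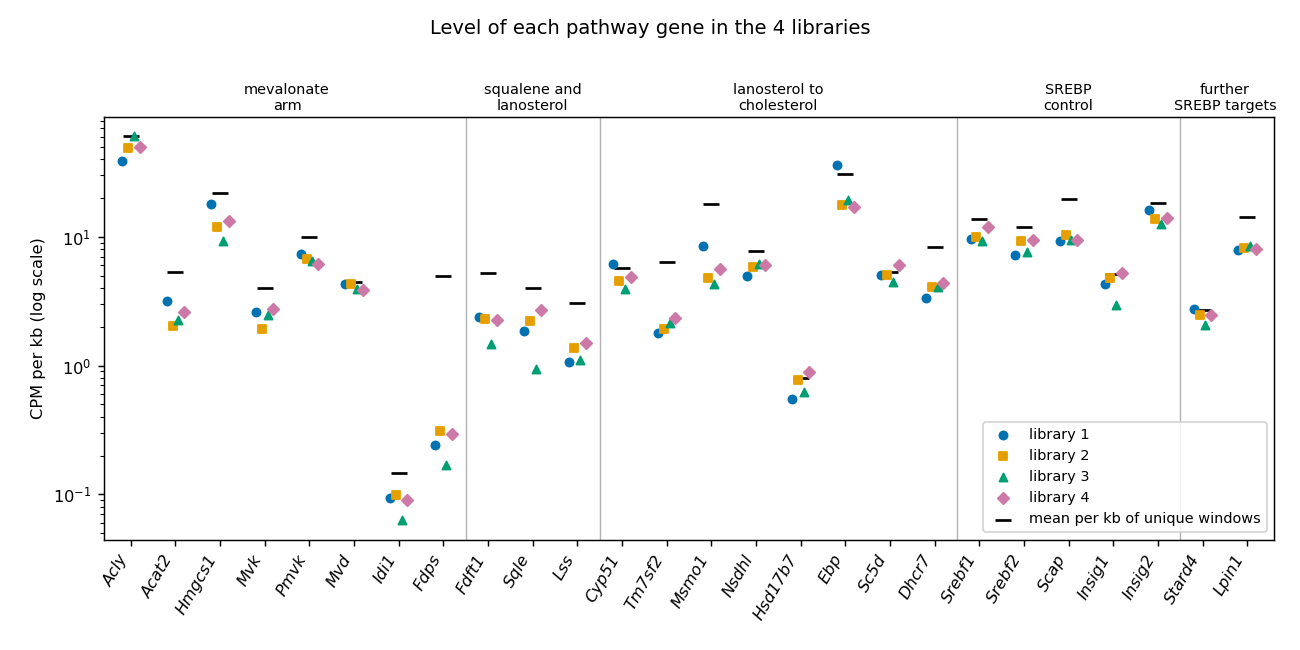
Level of each of the 26 genes in CPM per kb of exon (log axis), grouped by role, with 1 point per library and a bar for the mean per kb of sequence found in no other gene. Acly and Ebp stand highest at 49.5 and 22.5 CPM per kb, and Idi1 and Fdps lowest at 0.0863 and 0.253 CPM per kb.

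The sequence before the gene starts was read for 3 motifs known from promoters of this pathway, since the genes share a regulator. RefSeq promoter windows on GRCm38.p6 matched 22 of the 26 genes; Fdps, Fdft1, Sqle and Stard4 had none. The 250 bases before each start, 30 windows for the 22 genes, were searched on both strands for exact matches. A gene counted if any of its windows held the motif, and some windows lie partly or wholly inside the annotated gene. The sterol regulatory element TCACNCCAC, where N is any base, was found before 1 of the 22 genes, Hmgcs1, and before 1.22% of all 27025 genes in the table of promoters. CCAAT, the box bound by NF-Y, was found before 18 of the 22 genes (81.8%) and before 37.5% of all genes. By window it was found in 19 of 30, beside 33.8% of all windows. For Cyp51, Dhcr7, Idi1, Msmo1 and Tm7sf2, no CCAAT match lay wholly upstream of the annotated gene. GGGCGG, an Sp1 box, was found before 20 of the 22 (90.9%) and before 35.4% of all genes. By window it was found in 23 of 30, beside 32.7% of all windows. For Idi1, Insig2, Msmo1, Scap, Srebf1 and Tm7sf2, no GGGCGG match lay wholly upstream of the annotated gene. Among the 10559 genes that were also tested for spread, the shares were 40.2% for CCAAT, beside 17 of 21 pathway genes, and 62.5% for GGGCGG, beside 19 of 21. A CCAAT box and an Sp1 box can share a pair of end bases, and either shares at most an end base with the element. A match is a description, not a bound site. Only exact matches to 1 form of the element were searched, within 250 bases. A gene without a match may therefore still hold another form, or a site elsewhere.

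The windows of 4 genes are shown, written 5′ to 3′ on the strand of the gene and limited to bases upstream of the annotated gene. Capitals mark CCAAT or its reverse ATTGG and, in Hmgcs1, the element TCACCCCAC. Hmgcs1 (chr13:119690101-119690350, plus strand) is shown because it alone held an exact match to the element, which begins 137 bases before the start. Mvk (chr5:114444061-114444268, plus strand) had the most CCAAT boxes, 5, and its far end is trimmed where the neighbouring gene Mmab begins. Ebp (chrX:8193513-8193762, minus strand) had the largest excess in library 1, and Insig1 (chr5:28071162-28071362, plus strand) encodes the inhibitor of SREBP transport.
Hmgcs1: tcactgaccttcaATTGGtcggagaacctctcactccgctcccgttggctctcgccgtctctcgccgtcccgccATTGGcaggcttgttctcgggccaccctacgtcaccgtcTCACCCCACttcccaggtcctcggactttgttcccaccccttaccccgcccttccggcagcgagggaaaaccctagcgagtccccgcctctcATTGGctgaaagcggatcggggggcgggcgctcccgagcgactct
Mvk: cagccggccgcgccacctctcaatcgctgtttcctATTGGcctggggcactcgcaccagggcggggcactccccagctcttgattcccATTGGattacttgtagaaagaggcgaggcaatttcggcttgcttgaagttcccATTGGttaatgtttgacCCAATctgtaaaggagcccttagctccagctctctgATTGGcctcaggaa
Ebp: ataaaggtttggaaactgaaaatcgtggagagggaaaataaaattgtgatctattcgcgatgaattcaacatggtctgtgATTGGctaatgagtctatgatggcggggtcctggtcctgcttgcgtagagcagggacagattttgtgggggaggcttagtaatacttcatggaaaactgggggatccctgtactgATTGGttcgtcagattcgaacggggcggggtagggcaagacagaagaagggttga
Insig1: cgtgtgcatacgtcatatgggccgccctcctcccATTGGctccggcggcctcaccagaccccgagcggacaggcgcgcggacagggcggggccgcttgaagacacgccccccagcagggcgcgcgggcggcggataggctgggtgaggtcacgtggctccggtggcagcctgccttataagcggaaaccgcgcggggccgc
Mvk holds both forms of the box, while ATTGG, the reverse, is the form of all 3 boxes of Hmgcs1, both of Ebp and the 1 of Insig1.

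The mevalonate arm ran from the highest level of the pathway to the lowest. Acly (ENSMUSG00000020917, GRCm38 chromosome 11, 100476353 to 100528000), which cleaves citrate to supply cytosolic acetyl-CoA, had 205, 259, 319 and 262 CPM in libraries 1 to 4. Its mean of 49.5 ± 8.81 CPM per kb (SD, n = 4) was above every other gene of the set in each library. Hmgcs1 (chromosome 13, 119690379 to 119708260), the HMG-CoA synthase whose promoter is printed above, had 82.3, 54.4, 43.0 and 61.2 CPM. It was highest in library 1 and lowest in library 3, a 1.92-fold range that did not pass the test of spread (edgeR goodness of fit, adjusted p = 0.936). Acat2, the cytosolic thiolase before it, averaged 6.40 ± 1.28 CPM and Mvk, the mevalonate kinase after it, 6.51 ± 0.932 CPM. Per kb, Acat2 lay below Hmgcs1 in all 4 libraries (log2 difference -2.36 ± 0.22, SD, n = 4), and Hmgcs1 lay above Mvk in all 4 (2.40 ± 0.38).

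Pmvk and Mvd, the phosphomevalonate kinase and the decarboxylase that follows it, were the steadiest enzymes of the arm. Pmvk had 12.6, 11.6, 11.1 and 10.6 CPM, and Mvd had 8.04, 7.95, 7.26 and 7.14 CPM. The log2 difference per kb between Pmvk and Mvd was 0.71 ± 0.04 (SD, n = 4), the narrowest of the 19 pairs compared. Idi1, the isomerase of isopentenyl diphosphate, had 8, 8, 5 and 8 counts, or 0.326, 0.346, 0.220 and 0.318 CPM. These values are above the floor of 3 counts, 0.119 to 0.132 CPM, and were the lowest of the set; Idi1 did not pass the filter on low counts and was not tested. Per kb, Mvd exceeded it 48.0-fold (log2 difference 5.58 ± 0.26). Fdps, the farnesyl diphosphate synthase, had 25, 30, 16 and 31 counts, or 1.02, 1.30, 0.704 and 1.23 CPM.

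The lowest genes of the set, Fdps and Idi1, share sequence with other genes. Only 18.0% of the 50-base windows of the principal Fdps transcript occur in no other gene's transcript, and 76.4% of that transcript lies within same-strand exons of the readthrough gene Gm43738, which had 0 counts in every library. Per kb of unique windows, Fdps stood at 4.97 ± 1.24 CPM (SD, n = 4), 19th of the 26 genes, against 25th per kb of exon. Idi1 had 69.5% unique windows, shared the most others with the pseudogene Gm13502, also at 0 counts, and overlaps an opposite-strand gene over 10.7% of its principal transcript. That gene, Gm48574, had 1 count in library 2 and 0 in the others. It ranked 26th on either scale, at 0.146 CPM per kb of unique windows. The treatment of reads that fall in several genes is not stated in the labels, so the level of Fdps is uncertain, and the part of shared sequence in its low count was not tested.

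Squalene and lanosterol formation was carried by 3 genes at low and similar levels. Fdft1, the squalene synthase that commits farnesyl units to sterols, had 10.1, 9.80, 6.21 and 9.49 CPM in libraries 1 to 4. Library 3 was the low one. Fdft1 shares 27.0% of its principal transcript with the opposite-strand exons of Ctsb, a cathepsin at 3024 CPM. Without the strand setting, reads of the pair from the shared part cannot be told apart. Ctsb had 2901, 2728, 3654 and 2812 CPM in libraries 1 to 4. The part of the overlap in the Fdft1 values was not tested. Sqle (chromosome 15, 59315077 to 59331192), the squalene epoxidase and a rate-limiting step of the later pathway, had 10.3, 12.4, 5.24 and 15.1 CPM. This was the widest range of the set, 2.88-fold, with library 3 at 0.416 of the mean of the others; it did not pass the test of spread (edgeR, adjusted p = 1), and without library 3 the range was 1.47-fold. Lss, the lanosterol synthase, had 11.5, 14.8, 11.9 and 16.04 CPM. Per kb, neither Fdft1 against Sqle (log2 difference 0.19 ± 0.39) nor Sqle against Lss (0.53 ± 0.51) kept 1 sign in all 4 libraries.

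From lanosterol to cholesterol, Ebp and Msmo1 were highest in library 1. Ebp (ENSMUSG00000031168, chromosome X, 8185329 to 8193512), a sterol isomerase that also binds many drugs, had 83.1, 40.7, 45.0 and 39.4 CPM. Library 1 stood 1.99-fold above the mean of the other libraries, which lay within a 1.14-fold range of each other. Msmo1, the methylsterol oxidase, had 52.4, 29.3, 26.5 and 34.3 CPM, again highest in library 1. Ebp was the single gene of the set with an unadjusted p under 0.05 (p = 0.0202, edgeR goodness of fit, chi-square on 3 degrees of freedom; adjusted p = 0.289), and Msmo1 had an adjusted p of 0.847. Without library 3 the adjusted p of Ebp was 0.0926, the lowest of any gene of the set under any setting tried, and without library 1 it was 1.

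The other enzymes of this stretch varied less. Cyp51, the lanosterol demethylase, had 26.9, 20.1, 17.4 and 21.5 CPM, highest in library 1 and lowest in library 3. Nsdhl, a sterol dehydrogenase, averaged 16.4 ± 1.57 CPM, and Sc5d, a sterol desaturase, 25.0 ± 3.12 CPM. Dhcr7, the reductase of the last step, averaged 23.0 ± 2.46 CPM, and Tm7sf2, a sterol reductase, had 7.83, 8.51, 9.38 and 10.3 CPM. Each of these 4 stayed within a 1.35-fold range. Hsd17b7, the ketosteroid reductase of the demethylation complex, was the low point of the stretch, with 2.81, 3.97, 3.17 and 4.56 CPM. Per kb, Nsdhl before it was 8.18-fold higher (log2 difference 3.03 ± 0.25), and it lay 30.7-fold below Ebp after it (-4.94 ± 0.78). Of all 26 genes, 20 had over 95% of their 50-base windows in no other gene. Besides Fdps, Idi1 and Fdft1, lower shares were found for Acat2 (54.1%, most shared with Acat3, which had 2 to 7 counts), Hmgcs1 (85.5%) and Scap (86.9%).

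Along the pathway, 16 of the 19 differences compared kept the same sign in all 4 libraries. The 19 are the 17 neighbouring steps among 18 enzymes and the pairs Srebf2 with Srebf1 and Insig1 with Insig2. An exact two-sided permutation test that flips the sign of each library's difference gave p = 0.12 for each of these 16 (2 of 16 sign flips; 0.15 adjusted over the 19), the smallest the design allows. For the other 3 pairs the exact p was 0.38 for Fdft1 and Sqle, 0.25 for Sqle and Lss and 0.88 for Msmo1 and Nsdhl. Division by another length, or by none, turned the sign of 6 pairs, Cyp51 with Tm7sf2, Sc5d with Dhcr7 and Srebf2 with Srebf1 among them, so those differences rest on the length chosen. In the order of levels per kb, 18 of the 25 neighbouring pairs overlapped between libraries. Gaps without overlap followed Acly, Ebp, Lpin1, Dhcr7, Lss, Hsd17b7 and Fdps.

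Between libraries, Srebf1, Srebf2, Scap and Insig2 had ranges of 1.10-fold to 1.29-fold and Insig1 a range of 1.75-fold, with an adjusted p of 1 for each in edgeR. By level per kb, Insig2, Srebf1, Scap and Srebf2 ranked 3, 5, 6 and 7 among the 26 genes, and Insig1 ranked 14. Srebf2 (chromosome 15, 82147181 to 82205379), the SREBP that chiefly drives sterol genes, had 52.1, 66.8, 54.5 and 67.4 CPM in libraries 1 to 4. Srebf1 (chromosome 11, 60199089 to 60222581), whose products chiefly drive fatty acid genes, had 54.1, 56.4, 52.3 and 67.4 CPM. Both were highest in library 4, and their difference per kb was small (Srebf2 minus Srebf1, log2 -0.29 ± 0.13, SD, n = 4). Scap, the escort and sterol sensor, had 69.4, 76.5, 69.7 and 70.3 CPM, a 1.10-fold range. Insig1 (chromosome 5, 28071363 to 28078662), itself an SREBP target, had 13.2, 14.9, 9.20 and 16.1 CPM, lowest in library 3. Insig2 had 55.6, 47.7, 43.4 and 48.4 CPM. Per kb, Insig1 lay 3.31-fold below Insig2 (log2 -1.73 ± 0.31), in all 4 libraries.

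Stard4 and Lpin1 are further SREBP targets outside the synthesis chain. Stard4, a carrier of cholesterol between membranes, had 15.3, 13.8, 11.4 and 13.9 CPM. Lpin1, a phosphatidate phosphatase of glycerolipid synthesis, had 76.5, 79.7, 82.02 and 77.2 CPM, a 1.07-fold range that was the narrowest of the set.

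None of the 25 genes tested varied between libraries past an adjusted p of 0.05 in edgeR's goodness of fit, beside 3.28% of the 14112 genes tested (463 genes). At an unadjusted p under 0.05 there was 1 of 25, beside 9.57% of all. The quasi-likelihood variance test called 0 genes of the set and 0 of all genes, and at an unadjusted p under 0.05 it called 0 of 25, beside 4.66% of all. DESeq2 marked 0 of 25 as dispersion outliers, beside 0.0354% of all. Sqle and Ebp reached 2-fold between the highest and lowest library, 2 of 25 beside 22% of all genes tested. The median range was 1.39-fold over the 25 genes and 1.43-fold over all genes, and the median coefficient of variation was 14.33% and 16.02%. In simulated counts the test recovered 14 of 100 genes raised 2-fold in 1 library and 81 of 100 raised 4-fold, so a 2-fold change in 1 library was mostly not detectable here.

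**Figure D2:**
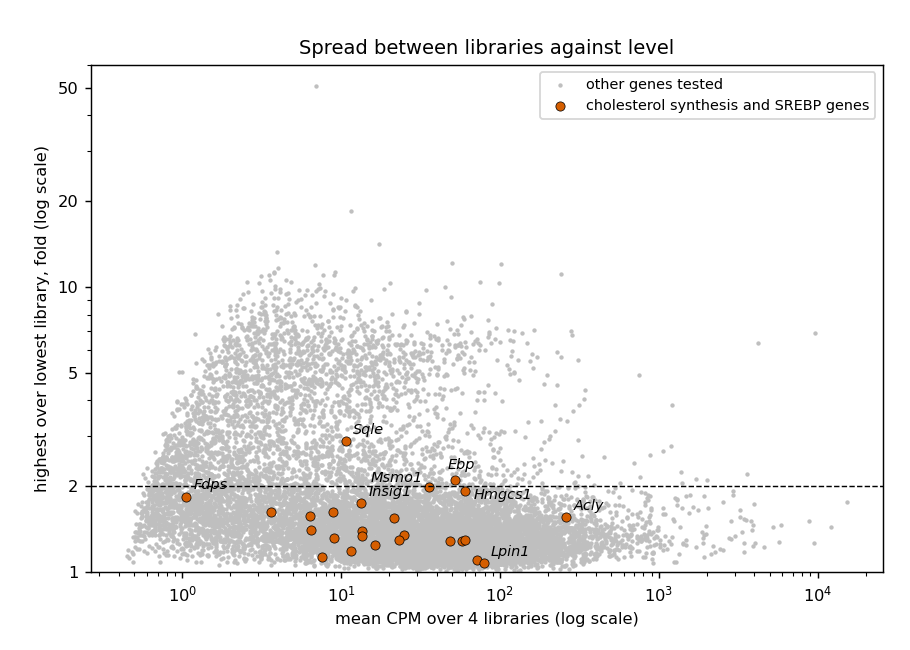
Highest over lowest library (fold, log axis) against mean CPM (log axis) for the 14112 genes tested in grey, with the 25 genes of the pathway in orange and a dashed line at 2-fold. Sqle and Ebp lie above the line at 2.88-fold and 2.11-fold, and Lpin1 lies lowest at 1.07-fold.

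By library, the genes were most often lowest in library 3 and most often highest in libraries 1 and 4, although the shares for library 1 were near those of all genes. Of the 25 genes tested, 11 were lowest in library 3, beside 29.2% of all genes tested, and 9 in library 1, beside 31%. In library 2, 2 were lowest, beside 19.5%, and in library 4, 3, beside 20.3%. The highest value fell in library 4 for 10 genes, beside 20.9% of all, and in library 1 for 10, beside 34.2%. It fell in library 2 for 2 genes, beside 16.5%, and in library 3 for 3, beside 28.3%. Over all 26 genes, 20 were below their own mean in library 3, against 14, 11 and 7 in libraries 1, 2 and 4. The genes lowest relative to the other libraries in library 3 were Sqle (0.416 of their mean), Fdps (0.596), Insig1 (0.625), Fdft1 (0.634) and Hmgcs1 (0.651), while Acly was higher there (1.32). In library 1 the genes highest relative to the others were Ebp (1.99 times their mean), Msmo1 (1.75), Hmgcs1 (1.56), Acat2 (1.38) and Cyp51 (1.37). These counts depend on scaling: with libraries scaled to the homeostatic microglia list, which moved the median of all genes by -0.16 (log2) in library 3 and 0.15 in library 4, 19 of 25 were lowest in library 3, beside 53.9% of all genes, and 16 were highest in library 4, beside 51%. Library 3 also had the lowest endothelial, pericyte and choroid plexus marker sums. Library 4 had the highest choroid plexus sum, 22241 CPM (6 of 6 genes highest there), and the highest astrocyte sum, 317 CPM (7 of 8). Library 1 had the highest sums for oligodendrocytes, for border-associated macrophages, 583 CPM against 241 to 291 CPM, and for erythroid cells, 365 CPM against 32.4 to 174 CPM. The part of other cell types in these differences was not tested.

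**Figure D3:**
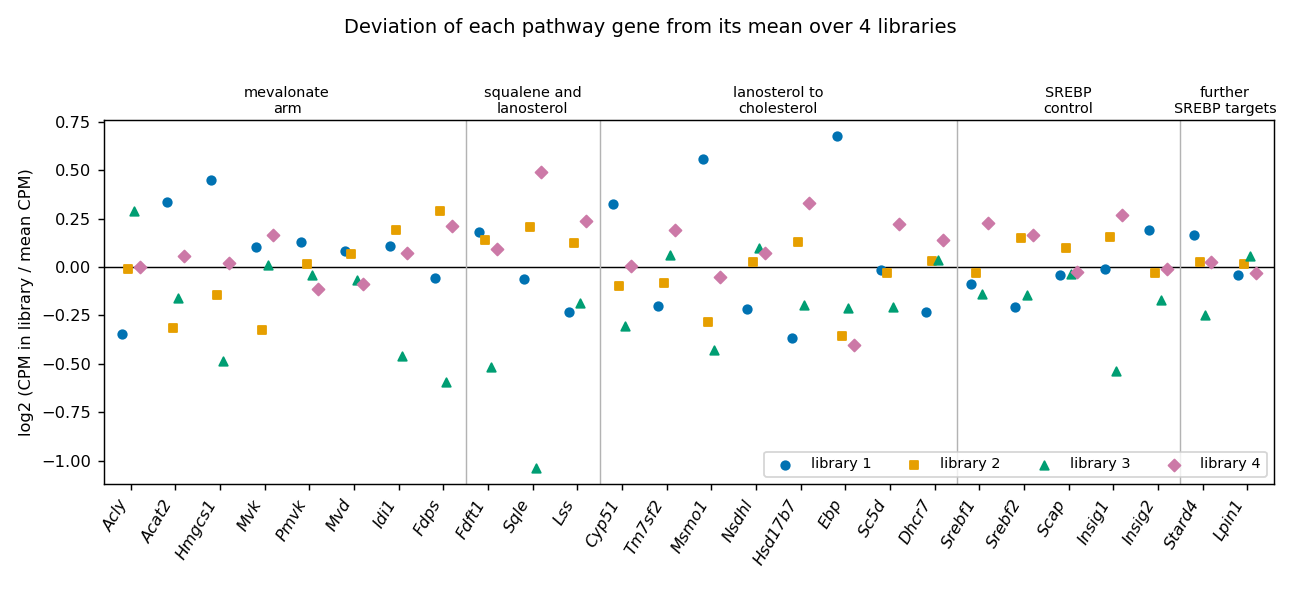
Log2 of the CPM in each library over the mean CPM of the 4 libraries, for each of the 26 genes, with 1 point per library. Library 3 lies below the mean for 20 of 26 genes, Sqle farthest, and library 1 lies above it by the most for Ebp and Msmo1.

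Of the 8 genes listed with SREBP processing and degradation, Tmem97 and Ggps1 included, none passed the test of spread (0 of 8, beside 3.28% of all genes tested). The list median lay between 6.004 and 6.13 (log2(CPM + 0.5)) in the 4 libraries. Erlin2, which acts in sterol-regulated degradation at the endoplasmic reticulum, had 20.9 ± 1.94 CPM per kb (SD, n = 4). The lowest of the list were Tmem97, a sterol-responsive membrane protein, at 3.79 ± 0.858 and Mbtps2, the second protease of SREBP cleavage, at 5.69 ± 0.0899 CPM per kb.

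Genes of fatty acid synthesis, the arm under SREBP-1, were mostly low in library 3 and high in library 4. Choroid plexus markers summed to 15992, 15940, 3318 and 22241 CPM in libraries 1 to 4, with 6 of 6 genes lowest in library 3 and highest in library 4, and 7 of 8 astrocyte markers were highest in library 4. Their part in the result was not tested. The list median of the fatty acid genes was 4.61, 4.82, 3.32 and 5.39 (log2(CPM + 0.5)) in libraries 1 to 4, with 8 of 10 genes highest in library 4, beside 20.9% of all genes tested, and 6 lowest in library 3, beside 29.2%. The list counts were taken with trimmed mean scaling only. Scaled to the homeostatic microglia list, 51% of all genes tested were highest in library 4 and 53.9% were lowest in library 3. Fads2, the fatty acid desaturase of the delta-6 step, had 25.4, 32.0, 9.82 and 47.7 CPM. It was the 1 gene of the 10 past the threshold (edgeR goodness of fit, adjusted p = 0.00592), beside 3.28% of all genes tested. The call was lost without library 3 (adjusted p = 0.719), without library 4 (0.267) and in the quasi-likelihood test (0.889). DESeq2 did not mark Fads2 as a dispersion outlier. Scd1, a stearoyl-CoA desaturase (22.4, 24.1, 8.67 and 36.0 CPM), Me1, the malic enzyme (6.12, 6.39, 1.89 and 12.3 CPM) and Elovl6, a fatty acid elongase (5.30, 9.85, 3.43 and 14.0 CPM), named after their values were seen, were also lowest in library 3 and highest in library 4, with adjusted p of 0.0674, 0.192 and 0.370 in edgeR. Sqle, too, was lowest in library 3 and highest in library 4. Per kb, the desaturases Fads1 and Scd2 were highest at 34.7 ± 4.17 and 33.7 ± 8.39 CPM, and the acetyl-CoA carboxylase Acaca and the acetyl-CoA synthetase Acss2 lowest at 0.489 ± 0.0648 and 1.006 ± 0.320 CPM.

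Genes of sterol storage, sensing and efflux were mostly lowest in library 1. Their list median was 7.27, 7.64, 7.77 and 7.57 (log2(CPM + 0.5)) in libraries 1 to 4, with 6 of 8 lowest in library 1, beside 31% of all genes tested, and 5 highest in library 3, beside 28.3%. These list counts were taken with trimmed mean scaling only and may depend on it. Scaled to the homeostatic microglia list, 31.8% of all genes tested were lowest in library 1 and 5.26% were highest in library 3. None of the 8 passed the test of spread, beside 3.28% of all. Npc2, which moves cholesterol out of lysosomes, was highest at 159 ± 30.1 CPM per kb, and Mylip, a ligase that lowers lipoprotein uptake, had 88.2 ± 14.1. Nr1h3, the LXR-alpha sterol sensor, was lowest at 1.17 ± 0.0658 CPM per kb, and Soat1, which esterifies cholesterol for storage, had 13.0 ± 1.63.

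**Figure D4:**
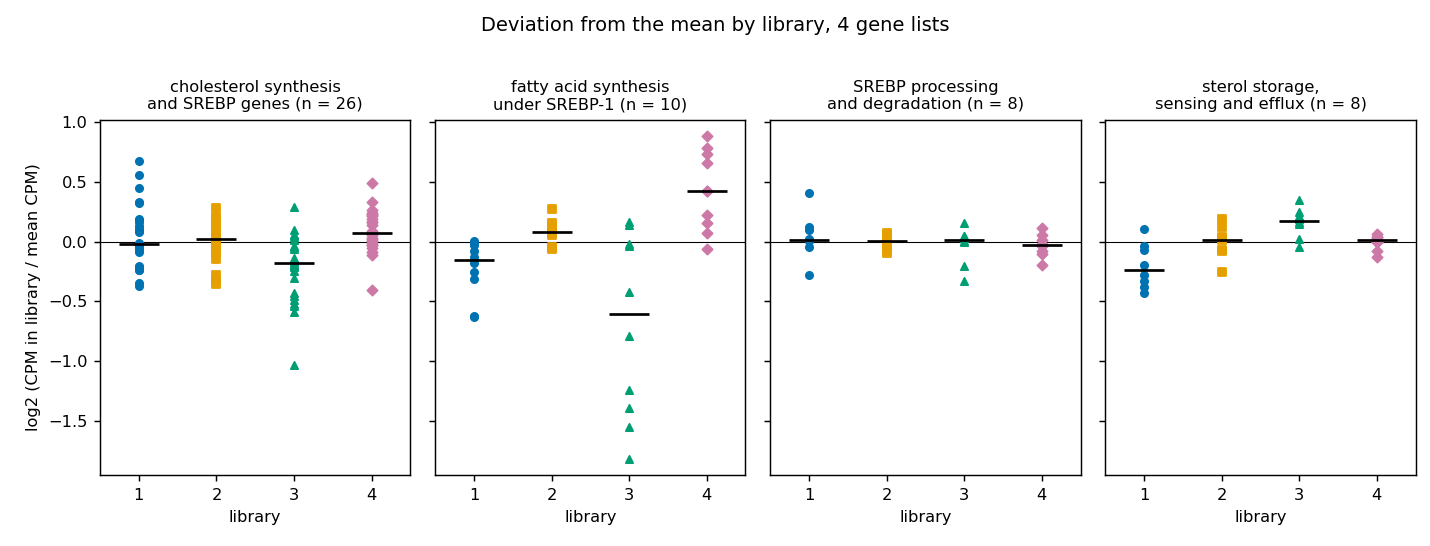
Log2 of the CPM in each library over the mean of the 4 libraries for 4 gene lists, with 1 point per gene and a bar at the median. In library 3 the median is -0.18 for the 26 cholesterol synthesis and SREBP genes and -0.61 for the 10 genes of fatty acid synthesis.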

How the data were processed

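Poly(A) RNA of CD11b-positive brain cells was measured in 4 libraries of 1 group. The authors deposited raw counts per Ensembl gene. The tools listed are featureCounts 1.6.5, STAR 2.7.2b and bcl2fastq 2.20.0.422, with GRCm38, per the submitters' processing notes. Strand setting, annotation release and the handling of multi-gene reads are not given in those sources. The kit marks strand, per the labels' protocols. Of 55471 genes, 55230 were found by identifier in GENCODE M21, the source of symbols, coordinates and exon lengths. No row was a total.

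CPM were computed on total counts (24412573, 23036202, 23585261 and 24487418) times TMM factors of 1.00, 1.01, 0.963 and 1.03 (edgeR 4.0.16, R 4.3.3). A floor of 3 counts is 0.119 to 0.132 CPM and, like the counts, covers counting error only, because reads carry no molecular identifiers and may be copies of 1 molecule. Spread was tested on the counts with an intercept-only negative binomial fit at the trended dispersion (chi-square on 3 degrees of freedom), with Benjamini-Hochberg adjustment over the 14112 genes kept by filterByExpr, and was tested on simulated data. Alternatives were the quasi-likelihood variance, DESeq2 1.42.0, other scalings, filters, dispersions and lengths, and each library left out. Pathway pairs were compared with an exact sign-flip permutation test of log2 CPM per kb. No libraries agreed within sampling noise (chi-square per degree of freedom at least 20.7).

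All 26 genes are named. In the 3 further pathway lists, genes past the threshold and the highest and lowest 2 per kb are named, and others as stated; 1 such gene is not reported here. The genes and lists were chosen with earlier results of these data known. Promoter windows came from RefSeq on GRCm38.p6.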

Additional observations from a re-analysis of the deposited data

Results flagged for a closer look

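An outlying library was looked for in 43 values, the 26 genes and the 17 list medians, by the gap of the highest or lowest library to its nearest neighbour over the whole range, set against Dixon's 95% critical value. Chance flags about 1 in 20 such groups. Library 1 stood apart for Ebp, with 83.1 CPM against 39.4 to 45.0 CPM in the others. Fdft1 stood apart in library 3, with 6.21 CPM against 9.49 to 10.1 CPM. Scap stood apart in library 2, with 76.5 CPM against 69.4 to 70.3 CPM, a gap that is small beside its level. The median of the endothelial list stood apart in library 3, at 4.56 (log2(CPM + 0.5)) against 6.31 to 6.63.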

How the results depend on the processing

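The count of 0 pathway genes past the threshold held under all 10 alternatives, while the count over all genes, 463, was 0 with the quasi-likelihood variance, 5 with DESeq2 dispersion outliers, 1058 with 1 common dispersion and 106 to 425 with each library left out, lowest without library 3. Genes at 2-fold or more numbered 1 to 2 with each library left out, 1 without library 1 and 1 without library 3. By total counts they numbered 3, with Msmo1 at 2.06-fold among them. The median level was 2.195 (log2 CPM per kb), against 2.42 by the longest transcript, 2.53 by the principal transcript and 2.59 by unique windows, the last 2 chosen after seeing the data. Scaled to the homeostatic list, the highest value fell in library 3 for 0 genes (5.26% of all genes) and in library 4 for 16 (51%), and the lowest in libraries 1 to 4 for 5, 1, 19 and 0 (31.8%, 11.2%, 53.9% and 3.07%). By total counts, 1 gene was highest in library 3 (18.8%), 1 lowest in library 4 (13.2%) and 15 lowest in library 3 (36%). Of 19 pairs, 13 kept their sign under every alternative. The sign turned for Fdft1 minus Sqle (log2 -0.20 without length, -0.25 by principal transcript), Sqle minus Lss (-0.43 without length), Cyp51 minus Tm7sf2 (-0.17 by principal transcript, -0.16 by unique windows), Sc5d minus Dhcr7 (-0.65 by longest and by principal transcript, -0.65 by unique windows) and Srebf2 minus Srebf1 (0.062 without length). Msmo1 minus Nsdhl turned to 0.62 by the longest transcript, 1.07 without length, 1.16 by principal transcript and by unique windows, and to between -0.31 and 0.13 with each library left out, above 0 without library 2 or 3. The cause was not tested. No paired analysis was possible because there is 1 group. Depth limits Idi1, with 5 to 8 counts, and Fdps, with 16 to 31.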
